A study of Homo sapiens with 6 samples.

Results

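Antisense transcripts are described here beside the genes they are named after, in HEK293 cells with and without knockdown of the long noncoding RNA *HSALNG0134318*. Of 26485 gene names in the count table, 979 ended in -AS and a number, the form given to a transcript named after a gene on the opposite strand. The 364 of them with at least 10 counts in 3 or more of the 6 cultures were taken as members, and the other 615 lay below that threshold. The part of the name before -AS gave the sense gene, which had a row of its own for 351 members. These 351 pairs hold 347 sense genes, 4 of which have more than 1 antisense member. The other 13 members had no row under the sense name, among them transcripts named after whole *HOX* clusters or the T cell receptor gamma locus.

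HEK293 is a line of human embryonic kidney cells. The 3 knockdown cultures, numbered 1, 4 and 5 in the labels and called knockdown replicates 1, 2 and 3 here, were transfected by lipofection with a Smart Silencer, which mixes antisense oligonucleotides with small interfering RNAs against *HSALNG0134318*. The 3 control cultures, numbered 10, 11 and 1 and called control replicates 1, 2 and 3, are labelled NC in one field and WT in another, and what they were transfected with is not given in the sources used here. All cultures come from this 1 line, and polyadenylated RNA was sequenced from stranded libraries.

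Natural antisense transcripts are RNAs made from the strand opposite to another gene. Many start close to the start of their sense gene and run away from it, since promoters often initiate transcription in both directions, and others overlap the body or the end of the sense gene. Such RNAs are often short-lived: the Integrator complex ends early noncoding transcription and the nuclear RNA exosome degrades its products. Some antisense RNAs are known to lower or raise the expression of the gene they face, and many have no known effect on it.

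The libraries held between 13900965 and 16869948 counts. *HSALNG0134318* has no row in the table, so its knockdown could not be checked in these data. Of the markers of HEK293 cells, *PAX2*, *LHX1*, *CDH2*, *VIM*, *KRT8*, *KRT18*, *NEFL* and *NEFM* were all detected, at means from 154 normalized counts for *PAX2* to 11466 for *VIM*. Of the markers of other cells, *HBB* and *CD3E* were at 0, *PTPRC*, *ALB* and *PECAM1* had means of at most 2.00, and *COL1A1* had a mean of 649.6 normalized counts. Of the 9 markers of both kinds that were tested, edgeR called 0 and limma-voom 1, with 3 higher and 0 lower at an unadjusted p under 0.05 in edgeR.

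Antisense members tilted upward in the knockdown cultures while their sense genes did not. Their median log2 fold change was 0.18 (quartiles -0.09 and 0.48), against -0.03 for their sense genes and -0.02 for all genes tested. Singly, 18 were called higher (5.08%) and 1 lower (0.282%) among the 354 members kept by the filter on low counts, where 5.40% of all genes tested were called higher and 4.64% lower. The rise with the smallest p was that of *EXOC3-AS1*, which faces the exocyst gene *EXOC3*. Of the 3 pairs in which both genes were called, *ITPR1* and *TMCC1* fell while their antisense transcripts rose, and *FOXP4* and *FOXP4-AS1* rose together. *ITPR1-AS1* passed the threshold for membership only through its knockdown counts. *TMCC1-AS1* and *FOXP4-AS1* needed knockdown counts to pass it too, since 1 control of each lay below the count required. The count of pairs with both genes called ran from 0 to 8 over the alternative fits, and was 0 whichever knockdown culture was left out.

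Differences are log2 fold changes, knockdown over control, from edgeR's quasi-likelihood test on the counts of 14877 genes, and calls were made where the Benjamini-Hochberg adjusted p over all of them lay under 0.05. The share of members called higher was near the share over all genes. Of their sense genes, 334 were tested, of which 14 (4.19%) were called higher and 18 (5.39%) lower. Normalized counts, used below, are counts scaled to the mean effective library size, and an error is the SD over 3 cultures. SE is an approximate standard error of a log2 fold change, its absolute value divided by the square root of edgeR's F statistic. In these bulk libraries, RNA from fewer cells and less RNA per cell cannot be told apart.

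The count of called members moved with single cultures. It was 3 higher without knockdown replicate 1, 3 without knockdown replicate 2, 2 without knockdown replicate 3 and 3 without control replicate 1. Without control replicate 2 it was 28, and without control replicate 3 it was 19. The calls over all genes moved with it, from 804 higher with all cultures to 341, 289, 297 and 375 in the first 4 of these settings and to 1274 and 1087 in the last pair. A correction for GC content and transcript length gave 32 members higher and 1286 genes higher.

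The tilt was visible in each culture. Against the mean of the controls, the median member differed by 0.17, 0.19 and 0.29 on the log2 scale in knockdown replicates 1, 2 and 3, and by -0.01, -0.01 and 0.07 in control replicates 1, 2 and 3. All 3 knockdown cultures lay above all 3 controls. For the sense genes the same medians ran from -0.05 to 0.04 over the 6 cultures. Members took 0.229%, 0.240% and 0.248% of all counts in the knockdown cultures and 0.214%, 0.212% and 0.218% in the controls, so the groups did not overlap in this share either.

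**Figure D1:**
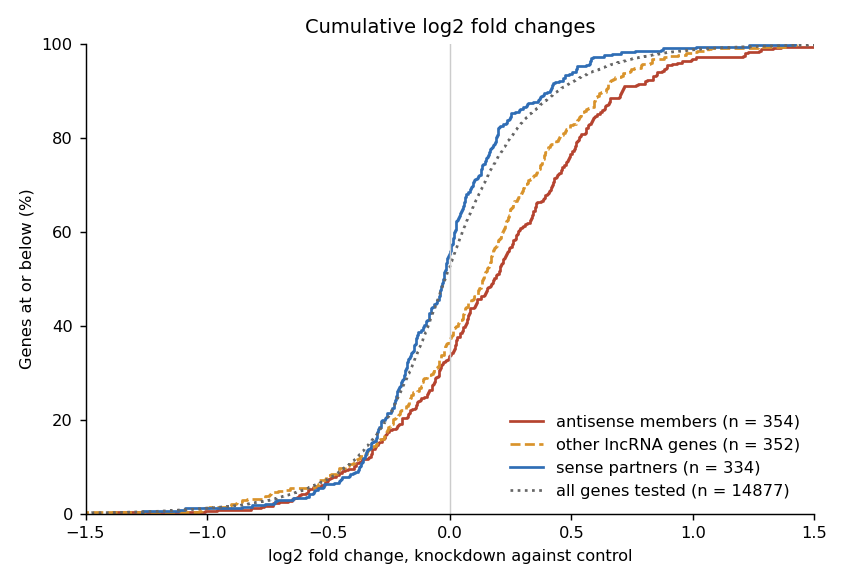
Cumulative share of genes (percent, y axis) at or below each log2 fold change of knockdown over control (x axis), for the antisense members, other genes of lncRNA type, the sense partners and all genes tested. The curve of the antisense members is to the right of that of their sense partners, with medians of 0.18 and -0.03, and the curve of other lncRNA genes lies between them over most of its course.

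Of the 354 members tested, the log2 fold change was above 0 in 234 and below it in 120 (66.1% positive), against 44.6% positive among sense genes and 47.3% among all genes. The values ran from -1.38 for *TRG-AS1*, named after the T cell receptor gamma locus, to 1.82 for *ITPR1-AS1*. *TRG-AS1* was not called (adjusted p = 0.081 from edgeR) and reached 10 counts in control cultures alone. *ITPR1-AS1* reached 10 counts in knockdown cultures alone. All 3 knockdown cultures lay above all 3 controls for 80 members (22.6%), where the background over all genes is 16.4%, and below them for 20 members (5.65%), where the background is 15.8%. At an unadjusted p under 0.05, 63 members were higher and 13 lower, and 41 sense genes were higher and 58 lower. The share over all genes at this threshold was not taken, so these counts have no background beside them.

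The tilt was not particular to genes named as antisense. Intergenic noncoding genes named LINC, of which 133 were tested, had a median of 0.20, with 67.7% positive, 5 called higher and 1 lower. All genes of lncRNA type without an antisense name, 352 with the LINC genes among them, had a median of 0.14, with 62.5% positive. Protein coding genes had a median of -0.03 over 13472 genes.

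By abundance, protein coding genes with a mean under 100 normalized counts had a median of 0.01 over 2596 genes (50.5% positive), while the 269 members under 100 had a median of 0.18. The 85 members at 100 or more had a median of 0.20 (69.4% positive). Members and sense genes had like GC contents, with medians of 48.0% and 47.2%, but their transcripts differed in length, with medians of 2561 and 4375 bases.

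Members were scarce beside their sense genes. Their median mean was 38.4 normalized counts, against 677 for the sense genes and 436 for all genes, and the median standard error of a log2 fold change was 0.28 for members and 0.12 for sense genes. Per kilobase of annotated exon, the median member reached 13.9% of the level of its sense gene (quartiles 3.90% and 46.2% over 341 pairs), and 52 members lay above it. The highest member was *FGD5-AS1*, with means of 3090 ± 102 normalized counts in the knockdown and 2870 ± 145 in the control cultures, while *FGD5*, a guanine nucleotide exchange factor of endothelial cells, had means of 23.7 ± 5.62 and 20.9 ± 2.38.

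The other 4 members with the highest means were *LRRC75A-AS1*, *HNRNPU-AS1*, *TP73-AS1* and *NIPBL-AS1*, and none of the 5 was called, with log2 fold changes from -0.04 to 0.11. *LRRC75A-AS1*, which GENCODE lists as the snoRNA host gene *SNHG29*, had a mean of 1886 ± 161 normalized counts in the knockdown and 1889 ± 247 in the control cultures. Among the 5 members with the lowest means were *FOXN3-AS1*, *SPTY2D1-AS1*, *ZNF350-AS1* and *TONSL-AS1*. Of the 5, *FOXN3-AS1* was tested and the other 4 fell below the filter. In all, 10 members were not tested, and 4 members reached 10 counts in all 3 knockdown cultures and no control while 3 did the reverse.

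The shared starts of 4 divergent pairs are shown first, since in these pairs both genes are read from 1 short stretch of DNA. At least 1 gene of each was called, which for *NUP50* was the sense gene alone. They are not all of the divergent pairs with a called gene. Positions come from GENCODE release 44 and sequences from RefSeq windows of 300 bases on GRCh38.p14, which reach from 250 bases before the start of the sense gene to 50 after it. Each window reads 5′ to 3′ on the strand of the sense gene, and capitals mark the bases that lie inside the antisense gene on the other strand. The window of *EXOC3* lies at chr5:442926-443225 (plus strand), *ITPR1* at chr3:4493098-4493397 (plus), *TMCC1* at chr3:129893662-129893961 (minus) and *NUP50* at chr22:45163675-45163974 (plus).
EXOC3: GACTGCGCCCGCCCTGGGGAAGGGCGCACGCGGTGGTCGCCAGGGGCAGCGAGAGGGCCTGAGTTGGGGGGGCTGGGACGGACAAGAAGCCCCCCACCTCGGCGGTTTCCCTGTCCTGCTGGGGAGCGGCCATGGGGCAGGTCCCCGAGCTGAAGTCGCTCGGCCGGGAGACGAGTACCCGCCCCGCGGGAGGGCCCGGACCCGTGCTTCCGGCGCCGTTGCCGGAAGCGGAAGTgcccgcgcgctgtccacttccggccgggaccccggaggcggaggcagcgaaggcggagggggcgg
ITPR1: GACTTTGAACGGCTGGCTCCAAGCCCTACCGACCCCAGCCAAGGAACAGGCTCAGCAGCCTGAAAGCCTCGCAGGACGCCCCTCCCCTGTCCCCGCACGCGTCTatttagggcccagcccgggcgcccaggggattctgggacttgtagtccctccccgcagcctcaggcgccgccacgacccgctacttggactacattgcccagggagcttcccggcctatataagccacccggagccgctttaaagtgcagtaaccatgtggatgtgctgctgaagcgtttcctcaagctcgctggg
TMCC1: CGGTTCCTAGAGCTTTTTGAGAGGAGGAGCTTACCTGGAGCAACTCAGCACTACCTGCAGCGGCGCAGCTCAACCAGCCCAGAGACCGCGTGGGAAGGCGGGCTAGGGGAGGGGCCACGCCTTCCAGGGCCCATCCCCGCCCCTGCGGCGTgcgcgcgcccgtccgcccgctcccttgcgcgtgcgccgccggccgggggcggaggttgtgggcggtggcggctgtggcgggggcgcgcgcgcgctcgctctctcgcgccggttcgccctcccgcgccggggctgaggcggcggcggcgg
NUP50: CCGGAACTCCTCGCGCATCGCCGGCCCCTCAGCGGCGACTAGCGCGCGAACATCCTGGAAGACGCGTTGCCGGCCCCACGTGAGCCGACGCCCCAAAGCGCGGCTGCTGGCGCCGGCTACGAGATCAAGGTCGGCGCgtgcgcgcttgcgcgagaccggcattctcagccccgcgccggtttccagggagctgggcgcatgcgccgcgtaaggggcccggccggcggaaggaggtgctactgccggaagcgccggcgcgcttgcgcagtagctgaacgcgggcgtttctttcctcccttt

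The start of the antisense gene lay 16 bases before the RefSeq start of *EXOC3*, 147 before that of *ITPR1*, 100 before that of *TMCC1* and 114 before that of *NUP50*. The windows were rich in G and C, from 63.3% for *ITPR1* to 76.3% for *TMCC1*. Short motifs were searched on both strands: the GC box GGGCGG, the CCAAT box CCAAT, the TATA box TATAAA and the ETS core CGGAAG, of which GGGCGG and CGGAAG can share bases. The *EXOC3* window held 3 matches of GGGCGG and 4 of CGGAAG, that of *TMCC1* 4 of GGGCGG, that of *NUP50* 2 of CGGAAG, and that of *ITPR1* no match of these letters. CGGAAG was found in 41.7% of 72 windows of sense genes in divergent pairs and in 19.4% of 34961 RefSeq windows, and GGGCGG in 66.7% and 45.0%. TATAAA was found in 12.5% and 11.5%, and CCAAT in 29.2% and 34.6%. In the 473 windows of the sense genes of all pairs CGGAAG was found in 26% and GGGCGG in 58.8%, and in the 275 windows of antisense members in 26.9% and 56.0%.

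*EXOC3-AS1* rose most clearly of the members. It held 174, 189.9 and 166 normalized counts in knockdown replicates 1, 2 and 3 and 68.4, 62.5 and 80.3 in control replicates 1, 2 and 3. Every knockdown culture held more than 2-fold the counts of every control. The log2 fold change was 1.33 (edgeR adjusted p = 0.0010, SE 0.17). It was called in all 14 alternative settings of the fit, with log2 fold changes from 1.25 to 1.44, and no other member was. *EXOC3*, a subunit of the exocyst that tethers secretory vesicles to the plasma membrane, held 1149, 1216 and 1295 against 1066, 1137 and 1109, a log2 fold change of 0.14 that was not called (adjusted p = 0.34 from edgeR). The groups did not overlap for *EXOC3* either, but its difference was small beside that of its antisense transcript.

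*ITPR1* encodes the inositol trisphosphate receptor that releases calcium from the endoplasmic reticulum. It fell from 817 ± 64.4 to 494.5 ± 18.1 normalized counts, with 482, 515 and 486 in the knockdown cultures and 889, 764 and 798 in the controls. The groups were far apart, and the log2 fold change was -0.72 (edgeR adjusted p = 0.0019, SE 0.11). *ITPR1-AS1* rose, with 10.6, 20.9 and 21.5 normalized counts in the knockdown and 2.04, 5.36 and 7.20 in the control cultures. The groups did not overlap, but the deposited counts behind them were only 11, 20 and 20 against 2, 6 and 7. The log2 fold change was 1.82 (edgeR adjusted p = 0.042, SE 0.50), the largest among members tested. *ITPR1-AS1* reached 10 counts in the knockdown cultures alone, so it passed the threshold for membership only through the group in which it was high.

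*TMCC1*, which encodes a membrane protein of the endoplasmic reticulum, held 355, 376 and 399 normalized counts in the knockdown cultures and 546, 455 and 542 in the controls. Its lowest control lay above its highest knockdown culture, and it fell by 0.45 on the log2 scale (adjusted p = 0.038 from edgeR). *TMCC1-AS1* held 26, 28.2 and 35.4 against 16.3, 13.4 and 8.23, without overlap, and rose by 1.23 (edgeR adjusted p = 0.043, SE 0.34). Its lowest control lay below the count threshold for membership, so it also entered partly through the group in which it was high. Neither *TMCC1-AS1* nor *ITPR1-AS1* shares an exon with its sense gene in GENCODE.

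*FOXP4* encodes a forkhead transcription factor. It held 1734, 1814 and 1663 normalized counts in the knockdown and 664, 795 and 759 in the control cultures. Every knockdown culture was more than 2-fold above every control, with a log2 fold change of 1.23 (edgeR adjusted p = 5.3e-05, SE 0.10). *FOXP4-AS1* held 28.0, 35.5 and 30.1 against 8.16, 14.3 and 17.5, also without overlap, and its log2 fold change was 1.22 (edgeR adjusted p = 0.043, SE 0.34). Control replicate 1 lay below 10 counts for *FOXP4-AS1*, so its membership too came partly through the group in which it was high. The bodies of these 2 genes overlap head to head by 2241 bases, with no exon of *FOXP4-AS1* inside an exon of *FOXP4*. The count of 3 pairs with both genes called became 0 with at least 10 counts required in every culture, without any 1 of the knockdown cultures, without control replicate 1, and under the DESeq2 Wald test, which gave no adjusted p for *ITPR1-AS1*. It became 6 without control replicate 2, 2 without control replicate 3 and 8 after the GC and length correction.

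**Figure D2:**
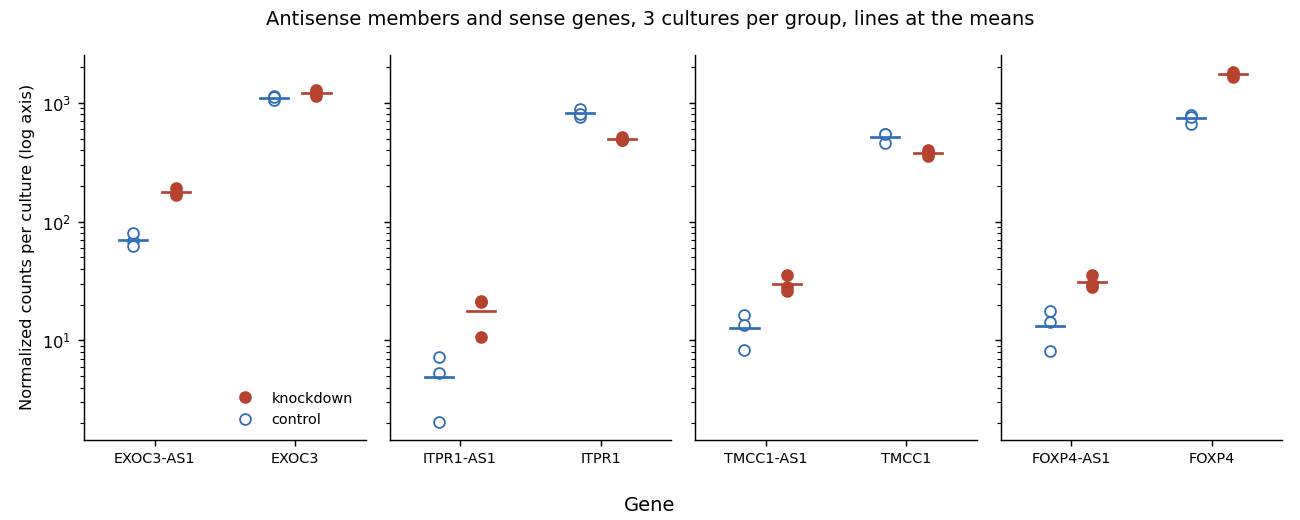
Normalized counts per culture on a log axis (y axis) for 4 antisense members and their sense genes (x axis), with filled points for the 3 knockdown cultures, open points for the 3 controls and lines at the group means. *EXOC3-AS1* is higher with little change in *EXOC3*, *ITPR1-AS1* and *TMCC1-AS1* are higher beside lower sense genes, and *FOXP4-AS1* and *FOXP4* are both higher.

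The next smallest p-values among members belonged to *EMC3-AS1* and *PSMG3-AS1*. *EMC3-AS1*, a pseudogene transcript inside a gene of the endoplasmic reticulum membrane complex, held 485, 641 and 658 normalized counts in the knockdown and 339, 315 and 395 in the control cultures. It rose by 0.77 (adjusted p = 0.0080 from edgeR) and lay above *EMC3* per kilobase, at 524% of its level. *PSMG3-AS1*, beside a chaperone of proteasome assembly, held 240.0, 234 and 182 against 132, 112 and 124 and rose by 0.84 (adjusted p = 0.0090). In both of these members the lowest knockdown culture lay above the highest control. Their sense genes *EMC3* and *PSMG3* had log2 fold changes of -0.13 and -0.35, and neither was called.

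Another 5 called members lay beside genes of transcription factors or chromatin proteins, with adjusted p from 0.021 to 0.044 in edgeR. *GABPB1-AS1*, beside a subunit of the ETS factor GABP, rose by 0.83, and *ASH1L-AS1*, beside a histone methyltransferase, by 0.99. *GATA2-AS1* and *LHX4-AS1*, beside a zinc finger and a LIM homeobox factor, rose by 0.50 and 0.62, and *TSC22D1-AS1*, beside a leucine zipper regulator, by 1.51. None of their 5 sense genes was called, and their values ran from -0.36 for *GATA2* to 0.25 for *LHX4*. *TSC22D1-AS1* rested on few counts, with 33.7, 21.9 and 20.4 normalized counts in the knockdown and 13.3, 4.46 and 9.26 in the control cultures. Most of these controls lay below the count threshold for membership, so it too entered through the group in which it was high.

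Further calls upward were *ARRDC1-AS1* (0.54), *TTC28-AS1* (0.60), *TMEM9B-AS1* (1.0), *RAP2C-AS1* (0.93), *BAIAP2-AS1* (0.42) and *DHRS4-AS1* (0.52), given as log2 fold changes, with adjusted p from 0.017 to 0.044 in edgeR. They lie beside genes of, among others, an arrestin-like protein (*ARRDC1*), a small GTPase (*RAP2C*), an adaptor of the actin cytoskeleton (*BAIAP2*) and a retinal reductase (*DHRS4*). *DHRS4-AS1* and *DHRS4* had like values, 0.52 and 0.50, and the second was not called (adjusted p = 0.074 from edgeR). *DHRS4* has near-identical copies beside it, so counts of this pair are uncertain.

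*KDM4A-AS1*, beside a histone demethylase gene, was the only member called lower. It held 23.1, 20.9 and 15 normalized counts in the knockdown and 37.8, 34.8 and 47.3 in the control cultures, without overlap. It fell by 1.01 on the log2 scale (edgeR adjusted p = 0.0496, SE 0.29), and *KDM4A* had a log2 fold change of -0.14 and was not called. The call was made in 4 of 14 alternative settings, and the members named here as called higher other than *EXOC3-AS1* kept theirs in 6 to 13.

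**Figure D3:**
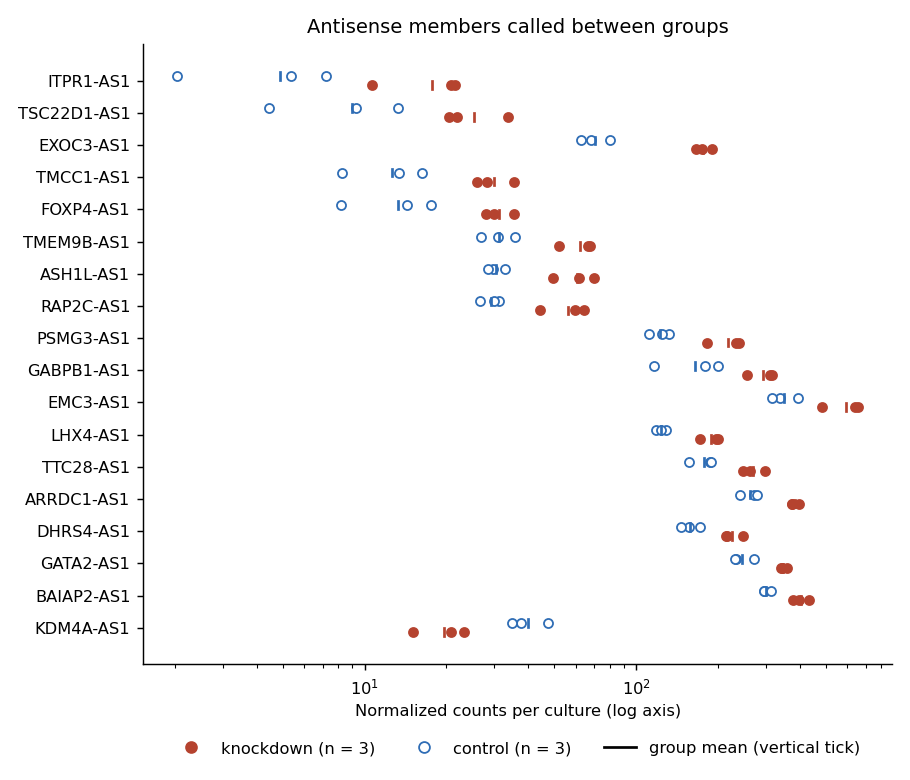
Normalized counts per culture on a log axis (x axis) for 18 of the 19 members called between groups (y axis), with filled points for the 3 knockdown cultures, open points for the 3 controls and vertical ticks at the group means. In all 18 the groups do not overlap, and *KDM4A-AS1* alone is lower in the knockdown cultures.

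Of the 19 called members, 15 had at least 10 counts in all 6 cultures, and *TSC22D1-AS1*, *ITPR1-AS1*, *TMCC1-AS1* and *FOXP4-AS1* had fewer such cultures. None of the latter would have passed the threshold for membership on control counts alone. Beside the 18 members called higher, 10 sense genes had values below 0 and 8 above it. The median over the sense genes of all 19 called members was -0.13. Of the 364 members, 268 had at least 10 counts in all 6 cultures, and 14 of those were called higher.

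Seen from the sense genes, the 10 largest called changes went without a called change in the antisense transcript, except in *FOXP4*. *OGFR*, the opioid growth factor receptor gene, rose the most, with 994, 1013 and 1092 normalized counts in the knockdown and 346, 419 and 392 in the control cultures. Its log2 fold change was 1.42 (edgeR adjusted p = 4.9e-05, SE 0.11). *OGFR-AS1*, which overlaps its start, held 17.4, 11.5 and 16.1 against 9.18, 17.0 and 14.4, with overlapping groups and a log2 fold change of 0.14 (standard error 0.38).

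*NUP50*, a nuclear pore gene, held 1646, 1906 and 2033 normalized counts in the knockdown and 4421, 3785 and 3895 in the control cultures. No control came near a knockdown culture, and *NUP50* fell by 1.12 on the log2 scale (edgeR adjusted p = 0.00015, SE 0.10). *NUP50-AS1* held 75.2, 90.8 and 81.6 against 46.9, 72.3 and 48.4. These groups did not overlap, but its log2 fold change of 0.55 was not called (edgeR adjusted p = 0.14, SE 0.23).

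*ARRDC3* and *PDCD4*, an arrestin-like gene and the gene of an inhibitor of translation initiation, fell by 1.27 and 1.09. *ARRDC3* held 178, 201 and 234 normalized counts in the knockdown and 639.8, 494 and 343 in the control cultures, and *ARRDC3-AS1* differed by 0.36 (adjusted p = 0.40 from edgeR). *PDCD4* held 1224, 1476 and 1375 against 3314, 2390 and 2988, and *PDCD4-AS1* by -0.32 (adjusted p = 0.36). Both sense genes were lower in every knockdown culture, while the groups overlapped for both antisense transcripts.

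*LRRC75A* fell by 0.82, with 142, 128 and 120.2 normalized counts in the knockdown and 278, 245 and 165 in the control cultures. Its abundant antisense transcript *LRRC75A-AS1* had a log2 fold change of -0.0024 with a standard error of 0.11, and its groups overlapped. *FAS*, the death receptor gene, fell by 0.76. *LPP*, *CACTIN* and *KIF9*, genes of a focal adhesion protein, a splicing factor and a kinesin, rose by 0.88, 0.87 and 1.01. Their antisense transcripts *FAS-AS1*, *LPP-AS2*, *CACTIN-AS1* and *KIF9-AS1* had log2 fold changes of 0.49, 0.56, 1.01 and 0.13, and none was called.

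Across the 329 pairs with both genes tested, 157 had the same sign. Both values were positive in 96 pairs and both negative in 61, the antisense value was positive and the sense value negative in 122, and the reverse held in 50. Pearson's r between the log2 fold changes was 0.03 and Spearman's rho 0.00, as a description over 329 pairs read from the same 6 libraries. Beside the 18 sense genes called lower the median antisense value was 0.25, and beside the 14 called higher it was 0.18.

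The ratio of antisense to sense counts within a culture needs no library scaling. For *ITPR1* the log2 ratio was higher in the knockdown group by 2.56, for *NUP50* by 1.70, for *TMCC1* by 1.70 and for *EXOC3* by 1.19, with no overlap between groups in any of the 4. For *FOXP4*, in which both genes rose, it differed by 0.02 with overlapping groups. The antisense row of *ITPR1* entered only through its knockdown counts, and those of *TMCC1* and *FOXP4* partly through theirs. The ratios of these pairs are therefore given as descriptions. Over all 329 pairs with both genes tested, the ratio was higher without overlap in 80, *ITPR1* among them, and lower in 19. No background share was taken for ratios, so these counts are a description only. Of 37 pairs chosen by the rule for named genes, most of them because 1 of the genes was called, 25 reached 0.10 in a two-sided exact permutation test of the ratio, which is the smallest p that 3 cultures against 3 can give. Adjusted by Benjamini-Hochberg over the 37 pairs, the smallest of these exact p-values was 0.148. The pairs were chosen by calls from the same 6 libraries, so neither the 25 nor these p-values support a change of the ratio.

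Pairs whose genes start close together had a higher median antisense value. Both genes had a position in GENCODE in 343 pairs, always on opposite strands. The 140 pairs with start sites within 1 kb had a median antisense log2 fold change of 0.26 (74.6% positive), and the 203 pairs with starts farther apart had 0.11 (60.0% positive). These values are medians with no test between them. Called higher were 8 of 138 members tested with close starts and 9 of 195 with starts farther apart. Over all genes tested, 5.40% were called higher. The medians of their sense genes were -0.08 and -0.02.

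By arrangement, 65 pairs were divergent, with no overlap and start sites within 1 kb, and their members had a median of 0.29, with 5 called higher of 64 tested. The 129 pairs that overlapped head to head had a median of 0.24, with 8 higher of 127, and their sense genes had a median of -0.11. Members contained in the sense gene or containing it, 76 pairs, had a median of 0.07, with 2 higher of 71. The 70 pairs that overlapped tail to tail had a median of 0.12, with 2 higher and 1 lower of 68, and 3 pairs lay apart. Over all genes tested, 5.40% were called higher and 4.64% lower, and no arrangement was tested against these shares. *LHX4-AS1*, also called higher, had no position in GENCODE. Pearson's r between antisense and sense log2 fold changes differed by arrangement. It was -0.29 for divergent pairs, 0.21 for head-to-head overlaps, 0.04 for contained pairs and 0.05 for tail-to-tail overlaps. These are descriptions, and the difference between arrangements was not tested.

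The medians were close with and without overlap of the exons of a pair. The members of 231 pairs with exon overlap had a median of 0.19, with 10 called higher and 1 lower of 226 tested. Those of 112 pairs without it had 0.17, with 7 called higher of 107 tested. Over all genes tested, 5.40% were called higher and 4.64% lower. The strand setting of the counting is not given in the sources used here. In shared exons, reads of the antisense and the sense gene therefore cannot be told apart with certainty. The 112 pairs share no exon in GENCODE, but the annotation used for counting is not given either. They are therefore not shown to be free of this.

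The machinery known to remove short-lived antisense RNA was read against all genes tested, of which 5.40% were called higher and 4.64% lower. Of 25 tested genes of the nuclear exosome and its cofactors, *ZC3H18*, which links the cap-binding complex to RNA decay, was called higher (log2 fold change 0.64, adjusted p = 0.0028 from edgeR), and none was called lower. The median over these genes was -0.04, and 3 were lower and 4 higher at an unadjusted p under 0.05. After the GC and length correction 4 of them were called, as were 4 without control replicate 2 and 2 without control replicate 3. Of 15 tested Integrator genes, 0 were called by edgeR or limma-voom and 2 by the DESeq2 Wald test, with a median of -0.03 and 2 lower and 1 higher at an unadjusted p under 0.05. Integrator calls were 1 without control replicate 2, 3 without control replicate 3 and 2 after the GC and length correction. Over all genes, calls upward rose from 804 to 1286 after the correction, 1274 without control replicate 2 and 1087 without control replicate 3. Calls downward rose from 690 to 1443 after the correction and to 1238 without control replicate 2. No share over all genes was taken at the unadjusted threshold, so those counts have no background beside them.

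Transcripts with other names given after a neighbouring gene, which end in -IT, -OT or -DT, had 69 rows, of which 8 were tested. Their median log2 fold change was -0.12, and edgeR, limma-voom and the DESeq2 Wald test each called 0 of them, with 0 at an unadjusted p under 0.05 in either direction. All 8 were of the -IT kind, named after the intron they lie in.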

How the data were processed

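RNA was sequenced from 6 HEK293 cultures, 3 with *HSALNG0134318* knockdown and 3 controls, with groups and replicate numbers from the sample labels. The authors deposited read counts per gene without normalization. The submitters' processing notes name FastQC 0.11.9, Trim Galore 0.6.6, STAR 2.7.9a, featureCounts 2.0.1 and the hg38 build, and the study's methods also name SortMeRNA for removal of ribosomal RNA. The annotation, strand setting and handling of reads on overlapping genes are not given in the sources used here. The members and gene lists were chosen with earlier results of these data known.

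The filterByExpr function kept 14877 genes, and after TMM scaling their counts entered the robust quasi-likelihood F test of edgeR 4.0.16 (R 4.3.3), with Benjamini-Hochberg adjustment over all genes tested and a threshold of 0.05. The study's methods name DESeq2, which was run as an alternative (1.42.0, Wald test). The other alternatives were scaling by library sizes or by DESeq2's size factors, a filter of 10 counts in all cultures or none, a block for the replicate number, 5 of 6 cultures in turn, limma-voom (3.58.1) and a correction for GC content and transcript length (loess, span 0.3, 14476 genes). The log2 ratio of antisense to sense counts used a pseudocount of 0.5 and an exact permutation test. The fit was tested on simulated data.

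Positions were taken from GENCODE release 44 on GRCh38, in which 288 members were found by symbol, 68 by an older symbol and 8 not at all. Of those found, 345 are of lncRNA type. Promoter sequences were RefSeq windows, found for 224 members and 283 sense genes by symbol. For a gene with several windows, the one nearest to the GENCODE start was shown and all entered the motif shares. Library totals ran from 13900965 to 16869948 counts and the biological coefficient of variation was 12.4%. The design text calls the 3 cultures of a group biological replicates, and p-values measure the spread between them.

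The genes named were every called member, pairs with both genes called, the 5 members with the highest and the 5 with the lowest means, the 10 pairs with the largest called change of the sense gene, and called genes of the exosome and Integrator lists. *TRG-AS1* was named after its values were seen, as the lowest log2 fold change. By this rule 2 more pairs would be named, which are counted but not reported here. Figures were drawn with matplotlib 3.10.9.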

Additional observations from a re-analysis of the deposited data

How the results depend on the processing

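The median log2 fold change of antisense members stayed above 0 in all 14 alternative fits, at 0.14 to 0.25 with 1 culture left out, the highest without control replicate 3, and that of their sense genes stayed below 0. Counts of calls depended on the cultures. With 1 culture left out, members called higher ran from 2 to 28 and lower from 0 to 4, sense genes higher from 5 to 25 and lower from 7 to 34, pairs with both called from 0 to 6, exosome genes from 1 to 4, Integrator genes from 0 to 3, and all genes higher from 289 to 1274 and lower from 233 to 1238. After the GC and length correction 32 members, 29 sense genes and 1286 of all genes were higher, 44 sense genes and 1443 of all genes were lower, and 8 pairs, 4 exosome genes and 2 Integrator genes were called. The DESeq2 Wald test called 2 Integrator genes and 13 members higher, and gave no adjusted p for 83 of 364 members. The call of *KDM4A-AS1* was lost, leaving 0 members lower, under DESeq2's size factors, library sizes alone, limma-voom, the DESeq2 Wald test and the replicate block. Pairs with both called were 0 under the DESeq2 Wald test and with 10 counts in every culture. With the replicate block 12 members were called higher and 2 pairs had both genes called, since *TMCC1* and *TMCC1-AS1* both lost their calls. Same-numbered cultures did not deviate together (correlations of -0.20, -0.11 and -0.04), and knockdown replicates 1, 2 and 3 correlated best with control replicates 2, 1 and 1. These values show no pairing by number, but with 3 cultures per group they cannot exclude a weak one. Counting 4 sense genes found under newer symbols gave 355 pairs. Of 922 values of named genes under these settings, 789 kept direction and side of the threshold, 100 lost and 10 gained a call, and 23 changed sign, none of a called gene. *LRRC75A-AS1* was at 0.0023 under DESeq2's size factors, 0.0074 under library sizes alone, 0.0040 with 10 counts in every culture, 0.00199 with the replicate block, 0.0013 under limma-voom and 0.0012 under DESeq2. *FOXN3-AS1* was at 0.0076 under limma-voom and 0.018 after the GC and length correction. With 1 culture left out, log2 fold changes ran from -0.14 to 0.046 for *ASH1L*, -0.20 to 0.0022 for *EMC3*, -0.021 to 0.31 for *FGD5*, -0.43 to 0.53 for *FOXN3-AS1*, -0.046 to 0.30 for *HNRNPU-AS1*, -0.065 to 0.11 for *LRRC75A-AS1*, -0.18 to 0.16 for *NIPBL-AS1*, -0.068 to 0.35 for *OGFR-AS1*, -0.093 to 0.029 for *TP73-AS1* and -0.19 to 0.093 for *ZNF350*. At these depths a member with few counts has a wide error, so an uncalled member is not shown to be unchanged. The causes of these differences were not tested.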
